A study of Mus musculus with 2 samples.

Results

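The MHC class II presentation genes are a set of 8 mouse genes, H2-Aa, H2-Ab1, H2-Eb1, Cd74, H2-DMa, H2-DMb1, Ctss and Ciita, that make, load and switch on the class II antigen-presenting molecule. They were picked by gene symbol, and every probe set annotated to a member was taken, 13 of the 22690 probe sets on the array. Of these, 11 belonged to 1 gene and 2 were shared between H2-DMb1 and H2-DMb2. RNA came from the back skin of 10-day-old mice, from transgenic mice labelled K14Ahr, whose keratinocytes express an always-active aryl hydrocarbon receptor (AhR), and from wild-type littermates without the transgene. AhR is a transcription factor that is normally switched on by dioxins and related compounds. Each genotype had 1 array, and neither the number of animals per array nor the strain is stated in the labels. With 1 array per genotype nothing could be tested, and all values compare these 2 arrays only.

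Class II molecules display peptides from the endosomal route to CD4 T cells. An alpha and a beta chain pair in the endoplasmic reticulum with the invariant chain, which is then trimmed by cathepsin S, and H2-DM exchanges its last fragment for a peptide. Transcription depends on the coactivator CIITA, which binds no DNA itself but docks on the factors RFX, NF-Y and CREB at the X and Y boxes of class II promoters. In skin, Langerhans cells, dermal dendritic cells and macrophages carry class II, and keratinocytes can acquire it under interferon-gamma.

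Promoters of 5 of the 8 genes could be matched in RefSeq, and 4 are shown, 3 because they hold X and Y boxes and that of Ctss because Ctss had the largest ratio. Each line gives the 250 bases before the gene start, 5′ to 3′ in the gene's direction, from RefSeq on build GRCm38.p6. Capitals mark an X box form (CTNGNAAC) followed by a Y box core (ATTGG), or, in Ctss, an interferon response form (GAAA, 2 free bases and GAAA again). The H2-Aa window is chr17:34287824-34288073 on the minus strand, that of H2-Eb1 chr17:34305617-34305866, that of H2-DMb1 chr17:34152941-34153190 and that of Ctss chr3:95526536-95526785, the last 3 on the plus strand.
H2-Aa: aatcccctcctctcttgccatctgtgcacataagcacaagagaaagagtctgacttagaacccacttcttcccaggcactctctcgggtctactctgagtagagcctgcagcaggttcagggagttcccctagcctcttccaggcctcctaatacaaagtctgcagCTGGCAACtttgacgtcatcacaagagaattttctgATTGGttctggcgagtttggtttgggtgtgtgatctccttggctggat
H2-Eb1: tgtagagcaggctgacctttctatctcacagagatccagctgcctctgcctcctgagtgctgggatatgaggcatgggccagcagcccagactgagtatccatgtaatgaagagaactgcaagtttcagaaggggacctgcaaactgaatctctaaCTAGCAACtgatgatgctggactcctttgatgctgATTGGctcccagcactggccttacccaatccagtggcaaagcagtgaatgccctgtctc
H2-DMb1: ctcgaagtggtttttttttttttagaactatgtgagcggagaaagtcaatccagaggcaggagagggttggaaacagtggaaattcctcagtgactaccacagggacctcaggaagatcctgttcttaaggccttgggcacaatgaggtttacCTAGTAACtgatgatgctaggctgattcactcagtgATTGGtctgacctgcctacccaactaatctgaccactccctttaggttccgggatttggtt
Ctss: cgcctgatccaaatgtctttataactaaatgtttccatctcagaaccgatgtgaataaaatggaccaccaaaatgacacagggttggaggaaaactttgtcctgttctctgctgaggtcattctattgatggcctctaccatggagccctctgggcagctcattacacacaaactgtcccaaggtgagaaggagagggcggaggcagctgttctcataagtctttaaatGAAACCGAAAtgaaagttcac

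The alpha chain gene H2-Aa, the beta chain gene H2-Eb1 and H2-DMb1 each held the X box form and, 28, 27 and 28 bases after its end, the Y box core. Searched on both strands, with 10 to 30 bases between them, this combination was found in 0.244% of 32851 promoter windows of the same length (80 windows). The letters of the X box form were chosen after these promoters had been read, so the matches are a description. The Y box core alone was in 33.8% of windows and the X box form alone in 10.9%. The interferon response form was in 2.98% of windows and, among 6 windows of members (H2-DMa has 2), only in that of Ctss. The core of the AhR response element, GCGTG, was in 28.2% of all windows and in none of the 6.

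Class II chain genes, the invariant chain gene Cd74 and the cathepsin S gene Ctss gave higher signals on the transgenic array than on the wild-type array. A probe set was measured where its signal lay above a floor of 34.7, the 40th percentile of all signals, on at least 1 array. Of the 8 members, 6 were measured, each on both arrays, while H2-DMb1 and Ciita lay below the floor. By the brightest probe set of each gene, 4 of the 6 were higher by 2-fold or more and none was lower by that much. The corresponding shares of all 8887 measured genes were 2.27% higher and 1.08% lower. The 6 log2 ratios, transgenic signal over wild-type signal, ran from 0.90 to 2.21, with a median of 1.30, against a median of -0.05 over all measured genes.

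**Figure D1:**
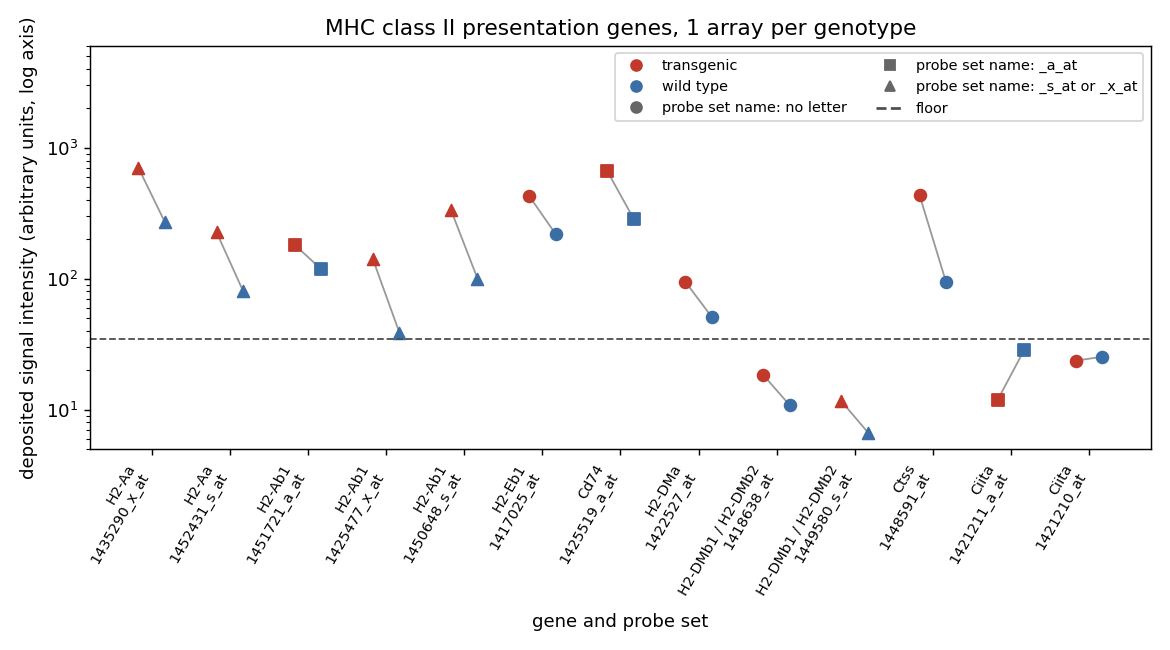
Deposited signal (log axis, arbitrary units) of all 13 probe sets of the MHC class II presentation genes, with the transgenic array left of the wild-type array in each pair and the floor of 34.7 dashed. All 9 measured probe sets were higher on the transgenic array, and the 4 probe sets of Ciita and H2-DMb1 lay below the floor on both arrays.

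The surface chains were read by 6 probe sets. H2-Aa, the alpha chain of the I-A molecule, read 701.9 on the transgenic array against 269.1 on the wild-type array by probe set 1435290_x_at, 2.61-fold higher. Its other probe set, 1452431_s_at, read 226.4 on the transgenic array against 80.4 on the wild-type array, 2.82-fold higher. The 2 log2 ratios, 1.38 and 1.49, differed by less than the technical spread of 0.255, which is the SD of log2 ratios between the 2 brightest probe sets of a gene (divided by the root of 2, over 2533 genes).

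H2-Ab1, the beta chain that pairs with H2-Aa, had 3 probe sets that fell into unlike readings. Probe set 1450648_s_at read 336.2 on the transgenic array against 100.5 on the wild-type array, 3.35-fold higher. Probe set 1425477_x_at read 141.7 on the transgenic array against 38.9 on the wild-type array, 3.64-fold higher, with the wild-type signal just above the floor. Probe set 1451721_a_at read 181.8 on the transgenic array against 118.2 on the wild-type array, 1.54-fold, short of the 2-fold limit. The log2 ratios were 1.74, 1.87 and 0.62, so the probe sets gave the same direction and unlike sizes. The annotation ties the _x_at and the _a_at probe sets to the same sequence record. H2-Eb1, the beta chain of the I-E molecule, read 430.3 on the transgenic array against 220.1 on the wild-type array by probe set 1417025_at. Its log2 ratio of 0.97 fell just short of the 2-fold limit, which it passed with median-centred ratios (1.02), and Cd74 was the member nearest to the limit on the other side.

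Among the genes that escort and load the chains, Cd74, the invariant chain, read 667.5 on the transgenic array against 287.1 on the wild-type array by probe set 1425519_a_at, 2.33-fold higher. Ctss, the protease that trims the invariant chain, read 435.4 on the transgenic array against 94.1 on the wild-type array by probe set 1448591_at. At 4.63-fold it had the largest ratio of the 6 measured members, and 21 of the 8887 measured genes had a larger ratio or bound. H2-DMa, the alpha chain of the peptide exchanger, read 95.1 on the transgenic array against 51.1 on the wild-type array by probe set 1422527_at (log2 ratio 0.90). With the floor at the 60th percentile the wild-type signal fell under it and the ratio became a lower bound of 0.43.

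H2-DMb1, the partner of H2-DMa, had no probe set of its own. The shared probe set 1418638_at read 18.4 on the transgenic array against 10.8 on the wild-type array, and 1449580_s_at read 11.6 on the transgenic array against 6.7 on the wild-type array. Both lay below the floor, so no ratio is given for them. Ciita, the coactivator of all these chain genes, was also below the floor. It read 23.7 on the transgenic array against 25.4 on the wild-type array by 1421210_at, and 11.9 on the transgenic array against 28.6 on the wild-type array by 1421211_a_at. Any difference in Ciita was not detectable at these signals. With the floor lowered to the 20th percentile (11.9) its log2 ratios were -0.10 and -1.26.

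**Figure D2:**
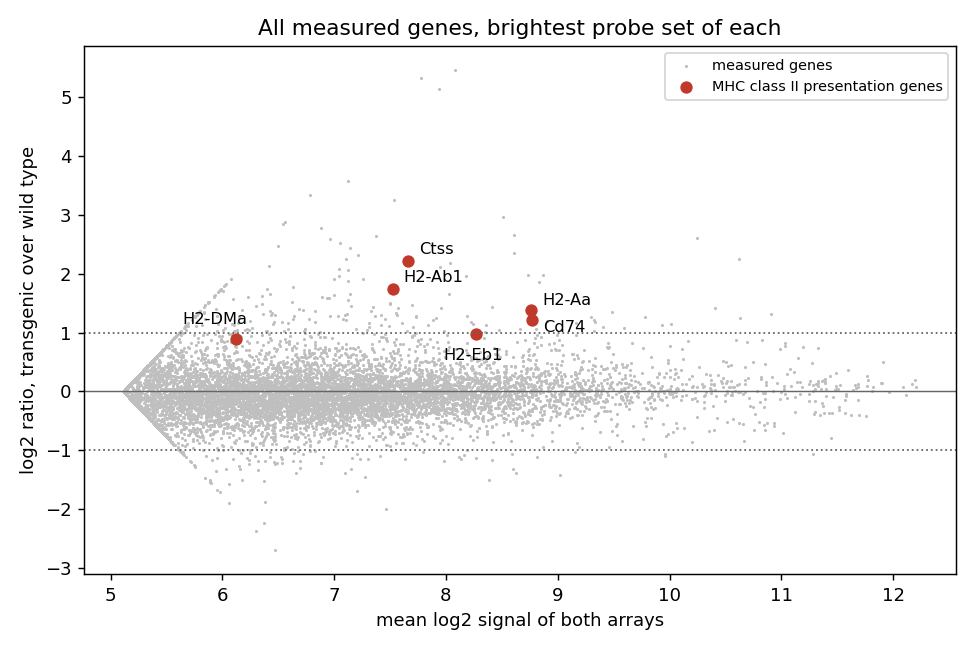
Log2 ratio (transgenic over wild type) against mean log2 signal for the 8887 measured genes (grey, brightest probe set of each), with the 6 measured MHC class II presentation genes in red and dotted lines at a 2-fold difference. Ctss, H2-Ab1, H2-Aa and Cd74 lay above the upper line, and H2-Eb1 and H2-DMa just under it.

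The kinds of probe set mostly read different members, so kind and gene cannot be told apart except in H2-Ab1. On these arrays a name ending in _s_at or _x_at marks probes that can bind related transcripts, a name ending in _a_at marks probes for several transcripts of 1 gene, and a name with no letter is unmarked. All 4 measured _s_at and _x_at probe sets of members, those of H2-Aa and H2-Ab1, were at least 2-fold higher, against 2.64% of all 1815 measured probe sets of this kind. Their median log2 ratio was 1.62, and that of all probe sets of the kind was -0.04. Of the 3 measured unmarked probe sets, 1 (Ctss) was at least 2-fold higher, against 2.04% of 8853, with a median of 0.97 beside -0.06 for all. Of the 2 measured _a_at probe sets, 1 (Cd74) was at least 2-fold higher, against 1.81% of 2601.

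Leaving out the _s_at and _x_at probe sets removed H2-Aa, which has no other kind, and left 5 measured members. Of these 5, Cd74 and Ctss were at least 2-fold higher, against 2.19% of the 8532 genes measured that way, and their median was 0.97. With unmarked probe sets alone 3 members were measured and Ctss was past 2-fold, against 2.24% of 7142 genes. The 2-fold differences of the I-A chains thus rested on probe sets that can bind related transcripts, whereas those of Cd74 and Ctss did not.

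H2-Ab1 was the only measured member with a marked and another kind of probe set. The mean of its _s_at and _x_at log2 ratios exceeded that of its _a_at probe set by 1.18. The same difference was computed for all 942 genes with both kinds above the floor on both arrays, and it had a median near 0 (-0.00042), an SD of 0.333 and a central 95% from -0.74 to 0.65. Apart from H2-Ab1, only Fcgr2b, an inhibitory antibody receptor gene, had a difference as high in that direction (1.37), and Rhbdd3 (-1.43) and Armcx2 (-1.29) had larger ones in the other. These 3 genes were named after their values were seen.

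**Figure D3:**
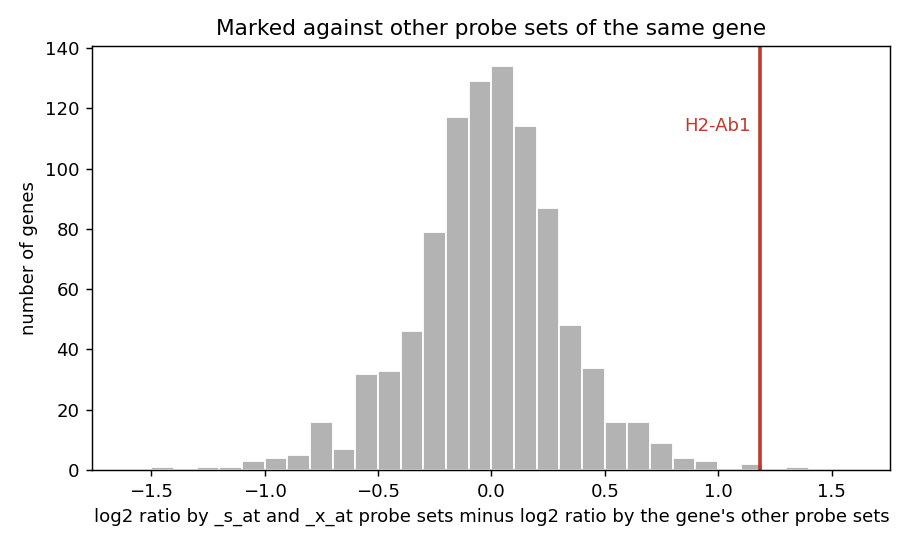
Histogram of the log2 ratio by _s_at and _x_at probe sets minus the log2 ratio by the other probe sets of the same gene, over 942 genes. The red line marks H2-Ab1 at 1.18, beyond the central 95% of genes (-0.74 to 0.65).

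The other class II chains did not share 1 direction. H2-Ea, the alpha chain that pairs with H2-Eb1, read 342 on the transgenic array against 98.3 on the wild-type array by its _s_at probe set, 3.48-fold higher. Its unmarked probe sets were dim. The brighter read 41.9 on the transgenic array against 11 on the wild-type array, below the floor (at least 1.21-fold higher), and the dimmer 4.8 on the transgenic array against 1.2 on the wild-type array. H2-Oa, a chain of the H2-DM inhibitor, read 30.2 on the transgenic array, below the floor, against 46.2 on the wild-type array (log2 ratio at most -0.41). H2-DMb2 had 41.7 on the transgenic array against 44.4 on the wild-type array by its own probe set (log2 ratio -0.09). H2-Ob was read only by a probe set shared with another gene, below the floor with 14.7 on the transgenic array against 10.7 on the wild-type array.

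The chain and exchanger genes H2-DMa, H2-DMb1, H2-Ab1, H2-Aa and H2-Eb1 lie in 1 stretch of chromosome 17, whereas Ctss is on chromosome 3, Ciita on 16 and Cd74 on 18. The stretch from H2-DMa to H2-Eb1 holds 11 protein-coding genes in RefSeq, and 9 had a measured probe set of their own. Among the 5 measured neighbours that are not members, 1 was at least 2-fold higher and 4 lay above 0, with a median log2 ratio of 0.62. Of all 8887 measured genes, 2.27% were at least 2-fold higher and 3896 lay above 0, with a median of -0.05. The neighbour past 2-fold was Psmb8, an immunoproteasome subunit gene, with 93.7 on the transgenic array against 12.2 on the wild-type array, below the floor (at least 2.70-fold higher). The class I peptide transporter gene Tap1 had a log2 ratio of 0.66, its partner Tap2 of 0.17, and the immunoproteasome gene Psmb9 of 0.62. Ctss and Cd74, outside the stretch, were past 2-fold as well, so the differences were not confined to these neighbours.

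**Figure D4:**
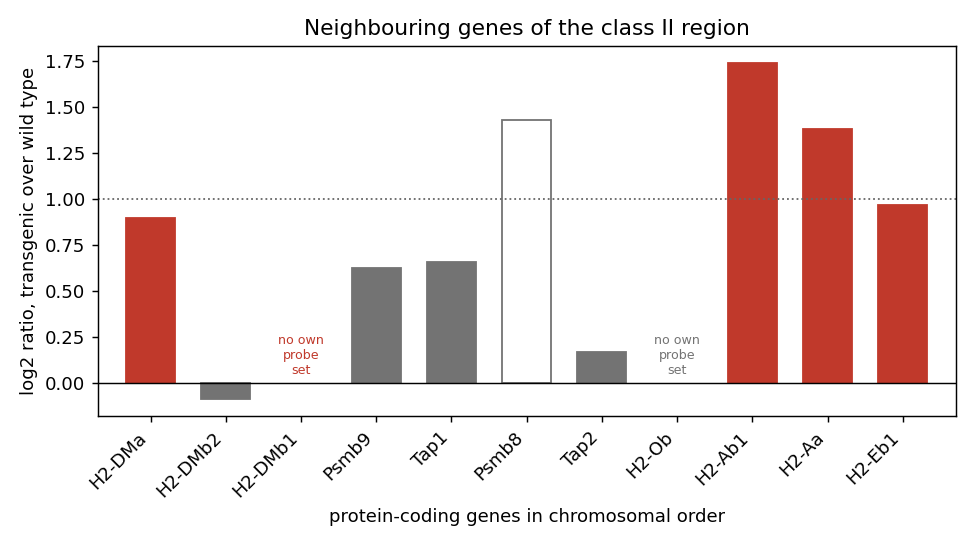
Log2 ratio (transgenic over wild type) for the 11 protein-coding genes from H2-DMa to H2-Eb1 in chromosomal order (spacing not to scale), members in red, others in grey, and an open bar for a ratio that is a bound. H2-Ab1, H2-Aa and Psmb8 lay above the dotted 2-fold line, and H2-DMb2 was at -0.09.

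The transcription factors that carry CIITA on class II promoters showed no 2-fold difference in either direction. All 7 were measured, each had a log2 ratio below 0, and the median log2 ratio was -0.19. Of all 8887 measured genes, 4991 lay below 0, and their median was -0.05. With median-centred ratios the median of the factors was -0.15. The RFX subunit genes Rfx5, Rfxank and Rfxap had log2 ratios of -0.21, -0.06 and -0.19. The NF-Y subunit genes Nfya, Nfyb and Nfyc had -0.59, -0.03 and -0.07, and Creb1 had -0.20. The other measured _a_at probe set of Nfya gave 0.09, so its probe sets differed in sign. Of the 28 measured genes outside the set whose promoter windows held the X and Y combination, none differed by 2-fold or more in either direction, and their median was -0.02. At the shares of all measured genes past that limit, 2.27% and 1.08%, a count of 0 among so few genes is near the background. The same holds for the 7 factors.

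The interferon-gamma route, the main inducer of Ciita outside professional antigen-presenting cells, had 7 measured genes. None was past 2-fold, which is near the background at 2.27% higher and 1.08% lower over all measured genes. Of the 7, 5 lay above 0, with a median of 0.44 against -0.05 over all measured genes. Ifng itself was below the floor, at 5.7 on the transgenic array against 9.6 on the wild-type array. The receptor gene Ifngr1 had a log2 ratio of 0.61 and Ifngr2 of -0.24, while the kinase genes Jak1 and Jak2 had 0.89 and 0.13. The response factor gene Irf1 was at 0.44, the myeloid factor gene Irf8 at a lower bound of 0.68 and the feedback inhibitor gene Socs1 at -0.26.

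Among the endosomal processing genes, 1 of 8 measured was at least 2-fold higher and none lower by that much, with a median of 0.31. For comparison, the 8887 measured genes had a median of -0.05, and 2.27% of them passed 2-fold upward and 1.08% downward. Lgmn, an asparagine-specific endopeptidase that starts invariant chain cleavage, read 297.1 on the transgenic array against 79 on the wild-type array, 3.76-fold higher. Ifi30, a thiol reductase that opens disulfide bonds of antigens, had a log2 ratio of 0.75, and Cst3, an inhibitor of cysteine cathepsins, of 0.59. The other cathepsin genes stayed nearer to equality, at 0.48 for Ctsh, 0.15 for Ctsb, 0.11 for Ctsd, -0.02 for Ctsl and -0.06 for Ctsz. Of the listed cathepsins and the cathepsin S gene, Ctss alone was past 2-fold.

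None of the 2 measured genes of surface turnover and the 3 of costimulation was past 2-fold. At shares of 2.27% higher and 1.08% lower over all measured genes, this is near the background. Cd83, which stabilises class II at the surface, had a lower bound of 0.12. Sppl2a, which clears the last invariant chain fragment, had -0.16, although its other probe sets gave 0.33 and 0.15. Icam1, an adhesion molecule of the T cell contact, read 88.5 on the transgenic array against 46.1 on the wild-type array (log2 ratio 0.94, past 2-fold with lowess centring). The costimulator gene Cd86 gave a lower bound of 0.39 and Cd40 an upper bound of -0.30, and Cd80 was below the floor on both arrays. The ratios of Cd83, Cd86 and Cd40 could thus lie past 2-fold.

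General leukocyte and macrophage markers were higher together with the class II genes. None of the 2 measured Langerhans and 6 measured dendritic genes was past 2-fold, and 3 of the dendritic ratios were bounds. With 2.27% of all measured genes higher by 2-fold, a count of 0 among so few genes is near the background. In whole skin, more cells of a type and more RNA per cell cannot be told apart. All 6 general leukocyte genes were measured, 4 of them past 2-fold and higher. The list had a median of 1.63 and a summed signal of 936.9 on the transgenic array against 330.9 on the wild-type array. The signalling adaptor gene Tyrobp (2.25) was highest among those above the floor on both arrays. The actin regulator gene Coro1a and the antibody receptor chain gene Fcer1g gave lower bounds of 1.74 and 1.70, and Laptm5 (0.71) and the phosphatase gene Ptpn6 (0.48) were lowest. Other probe sets of Laptm5 gave 1.08 and a lower bound of 1.54, both past 2-fold, and that of Ptpn6 a lower bound of 0.23. Of 10 measured macrophage genes, 7 were past 2-fold and higher. Among the 7, Csf1r passed by its brightest probe set (1.06), whereas its other probe sets gave 0.66 and 0.45. The macrophage list had a median of 1.46 and a summed signal over 11 genes of 2616 on the transgenic array against 890.8 on the wild-type array. The complement gene C1qa (2.59) and the mannose receptor gene Mrc1 (2.43) were highest among those above the floor on both arrays, Cd163 gave a lower bound of 1.33, Cd14 (0.83) and Adgre1 (0.54) were lowest, and Aif1 was below the floor. The part of these cells in the class II result was not tested.

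Langerhans and dendritic markers lay below the floor, gave bounds that could lie past 2-fold, or differed by less than 2-fold. The defining lectin gene Cd207 read 11.4 on the transgenic array against 11.1 on the wild-type array, below the floor, as did Ly75. The 2 measured genes of that list were the adhesion gene Epcam (0.64) and Cd1d1 (-0.25). The summed signal over 4 genes was 802.7 on the transgenic array against 563.3 on the wild-type array. Epcam alone read 698.7 on the transgenic array against 448.6 on the wild-type array, so the sum mostly reflects that gene. Of 9 dendritic genes, 6 were measured, with a median of 0.11 and summed signals of 494.6 on the transgenic array against 473 on the wild-type array. The integrin gene Itgax and Xcr1 gave lower bounds of 0.64 and 0.30, Zbtb46 (-0.15) and the actin bundler gene Fscn1 (-0.17) were lowest, and Batf3, Ccr7 and Flt3 were below the floor. Other measured probe sets of Fscn1 gave -0.18 and 0.18, so they differed in sign. In the sums Fscn1 alone read 207.9 on the transgenic array against 234.2 on the wild-type array.

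B cells also carry class II, and of 5 of their genes with a probe set, 2 were measured, Ms4a1 (a lower bound of 0.44) and Blk (-0.19). Their summed signal was 145.3 on the transgenic array against 128.1 on the wild-type array, and Cd79a, Cd79b and Pax5 were below the floor. All 6 T cell genes (Cd2, Cd3d, Cd3e, Cd3g, Cd4 and Cd8a) were below it, with a summed signal of 83.4 on the transgenic array against 94.4 on the wild-type array. Keratinocyte genes were bright on both arrays. Their summed signal over 5 genes was 12589 on the transgenic array against 6444 on the wild-type array, with a median log2 ratio of 0.74. Krt1 (2.61) and Krt10 (0.75) were highest, and Col17a1 (0.69) and Krt5 (0.56) lowest. Krt14 had 0.74 by its brightest probe set and 0.66, 0.81 and 1.01 by others, so its rank depended on the probe set. The AhR target Cyp1a1 read 1802 on the transgenic array against 40.8 on the wild-type array, and the 2 probe sets of Ahr had log2 ratios of 0.32 and 0.44.

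**Figure D5:**
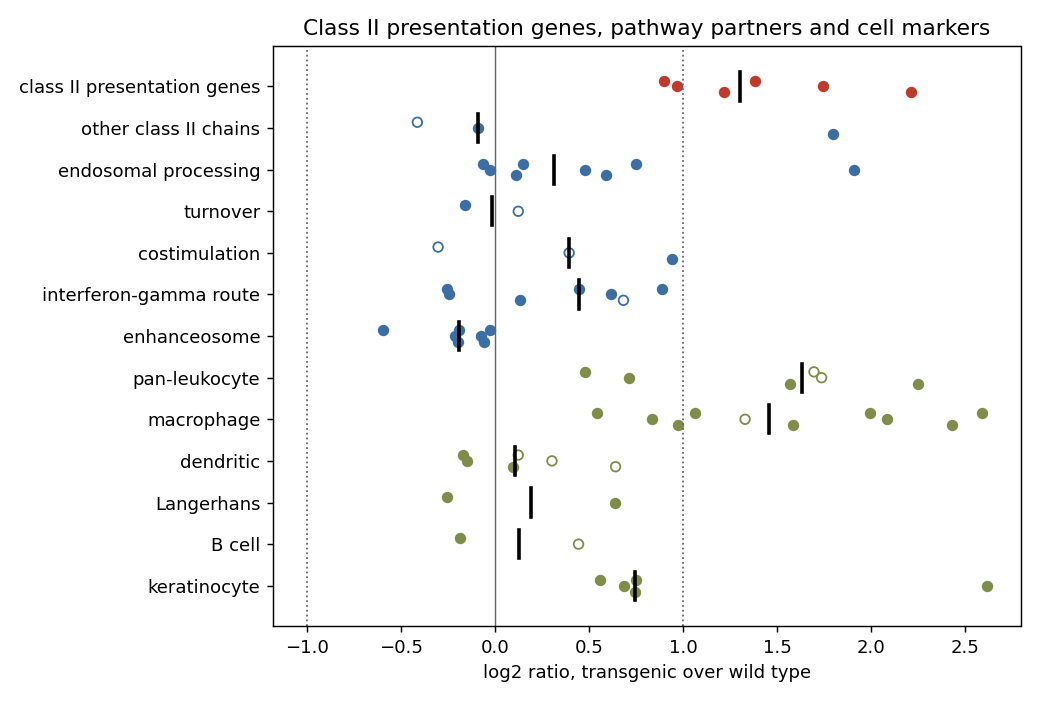
Log2 ratio (transgenic over wild type) for each measured gene (brightest probe set) of the MHC class II presentation genes (red), pathway lists (blue) and cell marker lists (green), with black bars at medians, open circles for bounds and dotted lines at a 2-fold difference. Medians were 1.30 for the class II genes, 1.63 for the pan-leukocyte, 1.46 for the macrophage and 0.74 for the keratinocyte list. All class II ratios lay within the range of each of these marker lists. The enhanceosome list, the factors on class II promoters, had a median of -0.19.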

How the data were processed

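Biotin-labelled total RNA of back skin was read on 1-colour arrays, per the labels. The deposited values are signal intensities on a linear scale, 1 for each probe set, and the authors had scaled them before deposit, since the 2% trimmed means are 99.6 on both arrays. The software was not given in the sources used here. The 64 control probe sets were left out. The platform annotation of 2016 gave 1 gene for 20380 of the remaining 22626, several for 691 and none for 1555. Names were updated through a RefSeq gene table of GRCm38.p6.

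Both arrays were rescaled to the same 2% trimmed mean, raised to the floor (40th percentile, 34.7) and put on the log2 scale, in Python 3.11.15 with numpy 2.4.6, pandas 2.3.3 and statsmodels 0.14.6. The printed signals are those deposited. On the transgenic array 59.8% of probe sets lay above the floor, against 60.2% on the wild-type array. A ratio with 1 signal at the floor is a bound. A gene was represented by its brightest probe set. Calls were made at 2-fold, with no test, since each genotype had 1 array, and this number of arrays is what limits precision. The steps were tested on simulated arrays.

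Named are every probe set of the 8 members, every measured gene of the pathway lists and the 2 highest and 2 lowest of each cell marker list. Csf1r and Krt14 are named as well, since their probe sets lay on both sides of the 2-fold limit. The members and lists were chosen with earlier results of these data known. Some listed genes were not analysed here. Alternatives were the deposited scale, median, quantile and lowess (span 0.4) centring, a pseudocount of 16, floors at the 20th and 60th percentiles, limits of 1.5-fold and 3-fold, and other probe sets per gene. Leaving out only _s_at and _x_at probe sets was an alternative chosen after seeing the data.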

Additional observations from a re-analysis of the deposited data

How the results depend on the processing

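No paired analysis was possible because each genotype has 1 array. All 9 measured member probe sets stayed above 0 under every scaling, floor and pseudocount tried. The count of 4 members past 2-fold was 5 with median-centred ratios, where H2-Eb1 reached 1.02 and the count of unmarked probe sets was 2 in place of 1. It was 6 at a 1.5-fold limit, 2 at a 3-fold limit, 1 of 3 with unmarked probe sets only and 2 of 5 without _s_at and _x_at probe sets, and the median was 0.97 in both of these. At 3-fold, 2 _s_at and _x_at and 0 _a_at member probe sets were past the limit, and at 1.5-fold 3 unmarked and 2 _a_at ones. Shares of all measured genes and probe sets past 1.5-fold and 3-fold are not given here. The counts at those limits thus have no background beside them. With the floor at the 20th percentile the _a_at median was 0.62, and 1 _a_at probe set, of Ciita, was at least 2-fold lower.

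Among the lists, a 1.5-fold limit put 1 enhanceosome gene past it lower and 3 endosomal processing, 1 costimulation and 3 interferon-gamma route genes higher. These counts too have no share of all measured genes beside them. Lowess centring put 1 costimulation gene past 2-fold. Other class II chains had 0 past 2-fold with unmarked probe sets only and without _s_at and _x_at ones, and a median of 1.80 with the floor at the 60th percentile. That floor gave medians of -0.17 for dendritic and 0.71 for general leukocyte genes, a pseudocount of 16 gave the general leukocyte list 1.38, and the 20th percentile gave turnover genes 0.35. Unmarked probe sets only gave medians of 0.61 for endosomal processing, 0.67 for costimulation, -0.17 for Langerhans and 1.01 for keratinocyte genes. The causes were not tested. The other 355 list and member values moved by less than 0.255 (medians) or by at most 1.5 times (counts). Signals near the floor limit H2-DMa, Ciita and the wild-type reading of the H2-Ab1 _x_at probe set.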
